A study of Caenorhabditis elegans with 4 samples.

Results

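The X chromosome of Caenorhabditis elegans carried 1532 of the 11476 MRE-11 peaks listed for the whole series, 11473 of which are nuclear and 3 mitochondrial. The X sites were taken as every peak of the whole-series list placed on X, and a peak was called reproducible when a peak of each replicate list overlapped it by at least 1 bp. By that rule 489 X peaks were reproducible, of 4147 on all 6 nuclear chromosomes. The peaks came from chromatin immunoprecipitation and sequencing (ChIP-seq) of fem-2(b245) hermaphrodites, labelled as young adults with a germline and kept at 20 degrees Celsius. All samples share the fem-2(b245) allele on chromosome III, and no strain with wild-type fem-2 was part of the comparison. There were 2 ChIP libraries, replicates 1 and 2, and 2 input libraries, which were not analysed here. All samples were treated with the crosslinker EGS for 20 min and with EGS plus formaldehyde for 10 min. The growth protocol in the labels describes gravid adults, which differs from the labelled stage. Whole worms were ground, so the peaks mix germline and somatic nuclei. The labels do not state if replicates 1 and 2 are separate worm cultures.

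MRE-11 is a nuclease that works with RAD-50 in the repair of DNA double-strand breaks, and in worm meiosis it is needed both to make the breaks and to trim their ends. FEM-2 is a protein phosphatase of the sex determination pathway that is needed for male fates, including sperm. Hermaphrodites carry a pair of X chromosomes, which are largely silent in most of the germline and are bound in somatic cells by a dosage compensation complex that lowers their expression. Meiotic breaks on X need proteins, such as HIM-5 and XND-1, on which the autosomes depend less. The pairing centre of X, where HIM-8 binds, lies near its left end. None of these factors was measured in these libraries, and the positions below are in build WS220 without gene annotation or sequence.

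X held 86.5 listed peaks per Mb, below the 92.9 (chromosome V) to 153.5 (III) of the 5 autosomes, and 27.6 reproducible peaks per Mb against 29.2 (V) to 62.4 (III). Listed peaks covered 4.07% of X and reproducible peaks 2.29%. X came last of the 6 chromosomes in both densities, but the order of X and V among reproducible peaks rested on a small margin. With the higher-scoring 50% of the list V had 25.8 and X 26.2 reproducible peaks per Mb, and with neighbours merged within 1000 bp V had 22.3 and X 23.2. With 1 X and 5 autosomes, an exact permutation test over chromosomes could not give a two-sided p below 0.167. X is therefore set beside the range of the autosomes with no p-value, and nothing is called particular to it.

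The makeup of the X sites differed from that of the autosomes in which replicate supplied them. Of the 1532 X peaks, 31.9% (95% Wilson interval 29.6% to 34.3%) were in both replicates, against 36.1% of all nuclear peaks and 31.5% (V) to 40.6% (III) on the single autosomes. Replicate 1 alone supplied 365 X peaks, or 23.8% (21.8% to 26.02%), where the share over all nuclear peaks was 16.0% and the autosomes ran from 13.0% (I) to 16.8% (II). Replicate 2 alone supplied 103, or 6.72% (5.57% to 8.09%), against 17.9% over all nuclear peaks and 18.1% (IV) to 22.4% (I) on the autosomes. The remaining 575 X peaks, 37.5% (35.1% to 39.99%), were in neither replicate list, against 30.0% of all nuclear peaks. X thus lay outside the autosomal range in 3 of the 4 classes and inside it for peaks in both replicates. The intervals cover counting error alone and treat neighbouring peaks as independent.

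**Figure D1:**
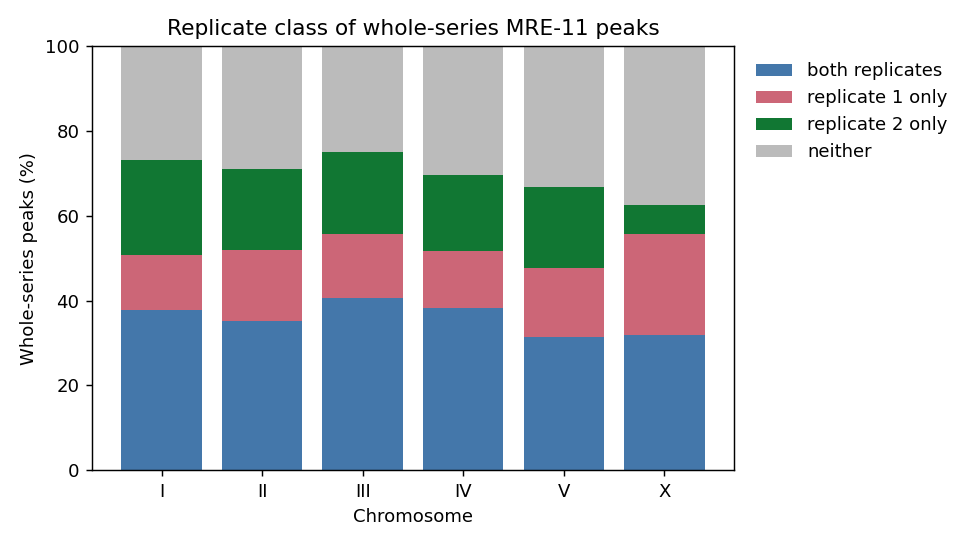
Share of whole-series MRE-11 peaks (%, y axis) in each replicate class on each nuclear chromosome (x axis); the segments of a bar add up to all listed peaks of that chromosome. On X the replicate 1 segment is 23.8% and the replicate 2 segment 6.72%, whereas on every autosome the replicate 2 segment is the taller of these.

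Per Mb, X lay farthest from the autosomes in the class found in replicate 2 only. Peaks in replicate 2 only had a density of 5.81 per Mb on X, and 17.7 (V) to 31.5 (I) per Mb on the autosomes. Peaks in both replicates, at 27.6 per Mb, were also below the autosomal range but close to its lower end, 29.2 on V. Peaks in replicate 1 only had 20.6 per Mb on X, which lay inside the autosomal range of 15.0 (IV and V) to 23.1 (III). Peaks in neither replicate, with 32.5 per Mb on X, also lay inside the range of 31.0 (V) to 38.5 (III). The replicate lists themselves gave the same picture. Replicate 1 had 644 X peaks, or 36.3 per Mb, above V (31.3) and below the other autosomes, up to 57.5 on III. Replicate 2 had 584, or 32.96 per Mb, and every autosome had more, from 44.0 on V to 83.2 on III. The larger share of replicate 1 sites among X peaks therefore went with a low density of replicate 2 sites, not with a density of replicate 1 sites beyond that of the autosomes. Library depth is unknown for both replicates, and its part in this difference was not tested.

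The shortage of replicate 2 peaks against replicate 1 was not set by a single stretch of X, but it was uneven. Replicate 2 listed more peaks than replicate 1 in 5 of 18 bins of about 1 Mb on X, but in 81 of 82 autosomal bins. Its largest lead on X was in the bin X 13781359 to 14765740, with 37 peaks against 27. The ratio of replicate 2 to replicate 1 peaks was 0.907 over X and 1.41 (V) to 1.58 (I) on the autosomes. With each list cut to its top 2000 scores it was 0.554 on X and 1.00 (III) to 1.18 (I) on the autosomes, and in covered bases 0.486 on X and 0.762 (V) to 0.873 (I). X thus had the lowest ratio of the 6 chromosomes by each of these 3 measures. Among whole-series peaks found in a single replicate, those of replicate 1 outnumbered those of replicate 2 in all 18 X bins and in 22 of 82 autosomal bins. The replicates nevertheless rose and fell together along X. Across 89 windows of about 200 kb Pearson's r between their peak counts was 0.73 and Spearman's rho 0.77, and r on the autosomes was 0.72 (V) to 0.81 (I). These correlations are descriptions across windows of the same chromosome.

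At matched score the difference between X and the autosomes remained visible in each class of single-replicate peaks. All nuclear whole-series peaks were split into 5 groups of equal size by score, group 5 being the highest. In the middle group, 131 of 350 X peaks (37.4%, 95% Wilson interval 32.5% to 42.6%) were in replicate 1 only, against 22.5% (20.7% to 24.4%) of the autosomal peaks. For replicate 2 only, the middle group had 11.1% (8.26% to 14.9%) on X and 31.2% (29.2% to 33.3%) on the autosomes. The same order of X and autosomes held in all 5 groups for each of these classes, although in the highest group replicate 1 only held 5 of 253 X peaks and replicate 2 only held 0 of 253, which allows a share of up to 1.50% (upper Wilson bound). For peaks in both replicates the order turned with score. X was lower in the 3 groups of lowest score, for example at 1.83% against 8.29% in group 2, and not lower in the other groups, at 57.9% (52.5% to 63.1%) against 55.6% (53.4% to 57.8%) in group 4 and 97.6% (94.9% to 98.9%) against 94.5% (93.4% to 95.4%) in group 5.

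**Figure D2:**
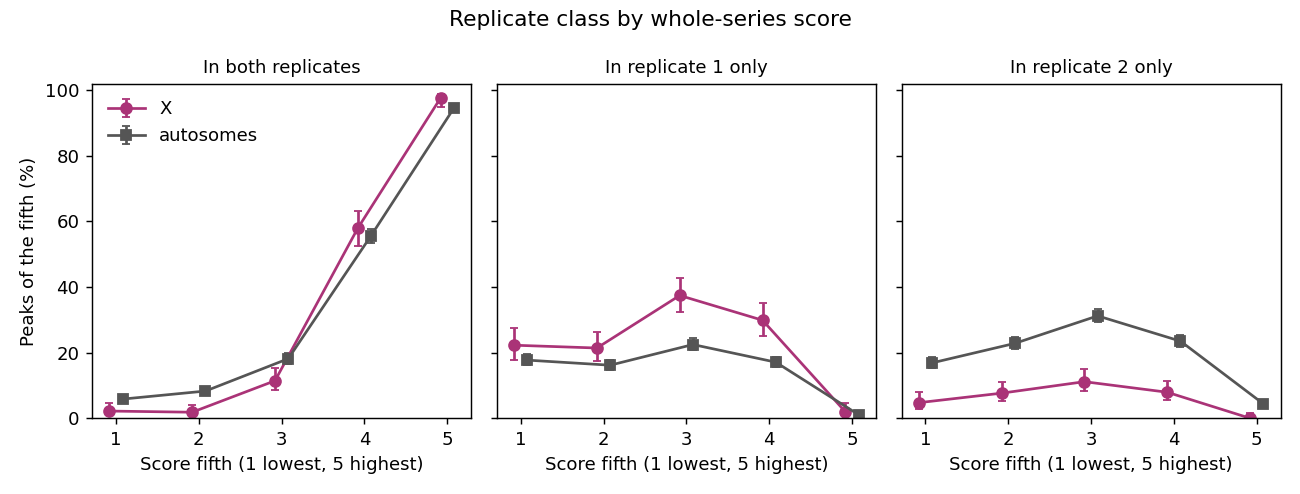
Share of peaks (%, y axis) in both replicates, in replicate 1 only and in replicate 2 only, by score group of the whole-series list (x axis, from 1, lowest, to 5, highest), for X and for the 5 autosomes together; bars are 95% Wilson intervals. In group 3 X has 37.4% against 22.5% in replicate 1 only and 11.1% against 31.2% in replicate 2 only.

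Sites that both replicates shared on X were also narrower and ranked lower in replicate 2. For each reproducible peak the overlapping peak of highest score was taken from each replicate list. On X its median width was 1417 bp in replicate 1 against 629 bp in replicate 2, with a median ratio of 0.52, and the replicate 1 peak was the wider for 481 of 489 sites (98.4%). On the autosomes the median ratio lay between 0.58 (III) and 0.63 (I), and replicate 1 was wider for 89.9% (I) to 93.4% (III) of sites. Replicate 1 calls were therefore wider on every chromosome, and more uniformly so on X. The score percentile within the own list had a median of 67.2 in replicate 1 and 50.2 in replicate 2 at the X sites, whereas on each autosome the median was higher in replicate 2. The rank was higher in replicate 1 for 330 of the 489 X sites (67.5%), against 37.1% (I) to 48.4% (III) of the autosomal sites. Percentiles compare a peak with its own list, and the lists differ in length.

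Peaks of the replicate 1 list on X were found again in replicate 2 less often at low scores and as often at the highest. With the replicate 1 list split into 5 equal groups by its own scores, 49 of 136 X peaks in the lowest group were overlapped by replicate 2 (36.0%, 28.4% to 44.4%), against 57.6% (53.9% to 61.2%) on the autosomes. In the highest group it was 113 of 113 X peaks and 730 of 730 autosomal peaks. Over all scores the share was 66.3% on X and 78.9% over all replicate 1 peaks. The 217 unshared X peaks of replicate 1 lay a median of 6659 bp from the nearest replicate 2 peak, against 4769 bp on the autosomes. Of these, 34 were within 1000 bp (15.7%, against 15.4% on the autosomes) and 81 were more than 10 kb away (37.3%, against 29.4%). In the other direction, 484 of the 584 X peaks of replicate 2 (82.9%, against 66.7% over all replicate 2 peaks) were overlapped by replicate 1.

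Most of the X sites of a single replicate lay in a replicate peak that held no reproducible site. This does not measure their distance from other sites. Of the 365 X peaks in replicate 1 only, 277 (75.9%) lay in a replicate 1 peak that held no reproducible peak, and 88 (24.1%, 20.0% to 28.8%) shared their replicate 1 peak with one. On the autosomes the latter share was 36.0% (V) to 48.7% (I). For replicate 2 only, 1 of 103 X peaks shared its replicate 2 peak with a reproducible one, and the others were separate. Nearly all autosomal peaks of this class were separate too (95.8%). The X peaks of highest score in replicate 1 only were X 12653540 to 12653991 (score 74.37), X 16910531 to 16910985 (62.69), X 13714599 to 13714926 (56.06), X 432950 to 433647 (50.16) and X 348176 to 348547 (48.02). They were 328 to 698 bp wide. For replicate 2 only they were X 5275237 to 5275551 (score 36.36), X 13597991 to 13598302 (32.77), X 5164965 to 5165288 (32.19), X 1964843 to 1965134 (31.85) and X 1035111 to 1035370 (31.02), which were 260 to 324 bp wide. The strongest site of replicate 1 only thus had a whole-series score above that of any site of replicate 2 only on X.

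The densest bins of reproducible sites on X were both end bins and bin 16. Bin 18, at the right end (X 16734507 to 17718889), held 40 reproducible peaks, bin 16 (X 14765741 to 15750123) held 39 and bin 1, at the left end (X 1 to 984382), held 38. The bins next to the ends were not dense, with 29 in bin 2 and 27 in bin 17. The sparsest were bin 8 (X 6890680 to 7875061) with 13, bin 4 (X 2953149 to 3937530) with 17 and bin 10 (X 8859445 to 9843827) with 18, with a median of 28.5 over the 18 bins. Both replicates gave low counts in the sparsest bins and high counts in the end bins: bin 8 had 24 peaks in replicate 1 and 17 in replicate 2, and bin 18 had 57 and 47. Bins 8 and 10 also flank bin 9, which had 33 reproducible peaks, so the middle of X alternated between dense and sparse stretches. The listed peaks ran from 63 to 111 per bin.

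**Figure D3:**
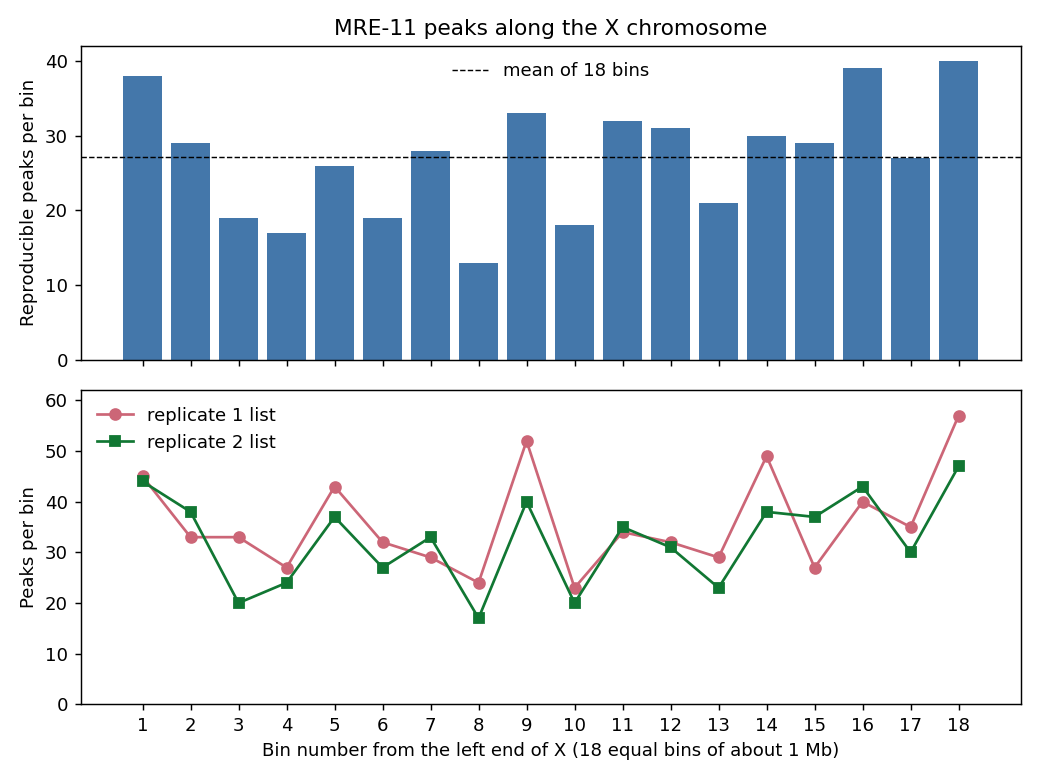
Number of MRE-11 peaks (y axis) in 18 equal bins of about 1 Mb from the left to the right end of X (x axis); the upper panel shows reproducible peaks with the bin mean as a dashed line, the lower panel each replicate list. Bins 1, 16 and 18 hold 38 to 40 reproducible peaks and bin 8 holds 13.

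The right arm of X held more than its share of sites by length, and the left arm did not. With arms set as the outer 25% at each end, the left arm (X 1 to 4429722) had 117 reproducible peaks, or 26.4 per Mb, the centre (X 4429723 to 13289166) 222, or 25.1 per Mb, and the right arm (X 13289167 to 17718889) 150, or 33.9 per Mb. The right arm held 30.7% (26.8% to 34.9%) of the X peaks and the left arm 23.9% (20.4% to 27.9%), each in 25% of the length. The right arm thus exceeded the left by 7.45 per Mb, and by 5.19 per Mb in the list of replicate 1 and 7.45 per Mb in that of replicate 2. Among reproducible peaks the same difference ran from -28.4 (I) to 27.7 per Mb (II) on the autosomes, a range that includes X. With neighbours merged within 1000 bp the difference on X was 3.61 per Mb. With arms of 10% it turned, with 36.1 per Mb at the left tip and 34.99 at the right (-1.13 per Mb), so the left arm combined a dense tip with a sparse inner part. Together the arms held 54.6% of the X peaks (95% Wilson interval 50.2% to 59.0%), against 47.3% over all nuclear reproducible peaks and 40.4% (V) to 49.8% (III) on the autosomes. X had the highest arm share of the 6 chromosomes in each replicate list too, with 53.9% in replicate 1 and 55.3% in replicate 2, and in all listed peaks (50.7% against at most 49.6%, on III). The outer 10% at each end held 25.8% (22.1% to 29.8%) of the X peaks, and 16.1% (I) to 20.5% (II) on the autosomes. With arms of 33%, which hold 66% of the length, the share was 68.3% on X (64.0% to 72.3%) and 67.3% on III, so that the interval for X included an even spread.

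**Figure D4:**
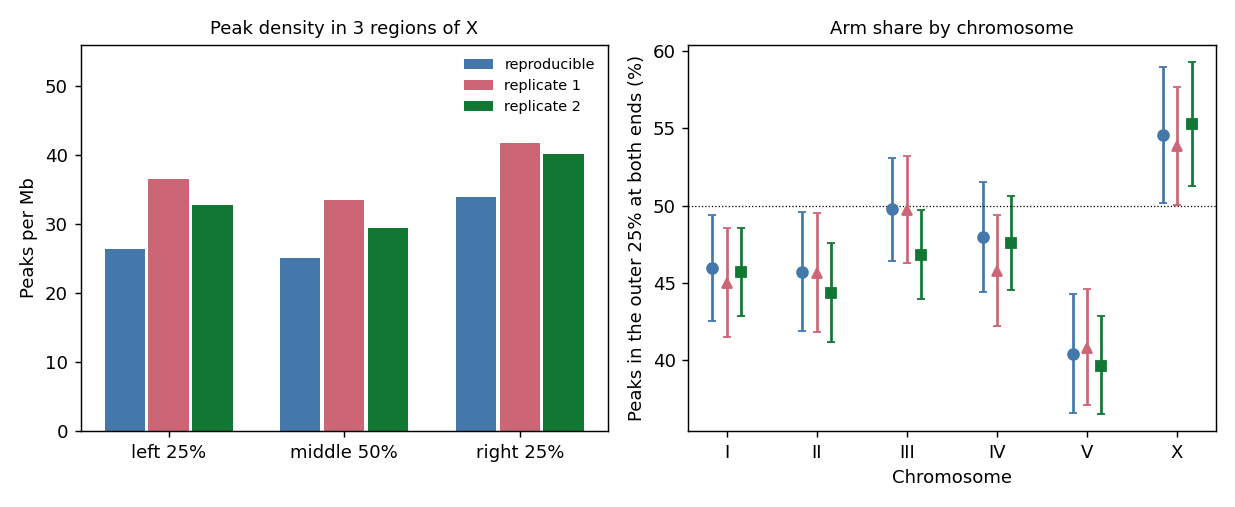
Left, peaks per Mb (y axis) in the left 25%, middle 50% and right 25% of X for the reproducible peaks and each replicate list. Right, share of peaks in the outer 25% at both ends (%, y axis) by chromosome (x axis), with 95% Wilson intervals and the 50% of even spread as a dotted line; X, at 53.9% to 55.3%, is the one chromosome above that line in all 3 sets.

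The median width and score of reproducible peaks differed between the 3 regions of X, with no interval computed for them. The intervals for replicate makeup overlapped in every class, which does not show that the makeup was the same. Reproducible peaks of the left arm had a median width of 659 bp and a median score percentile of 84.4 in the whole-series list, against 545 bp and 78.3 in the centre and 563.5 bp and 80.0 in the right arm. The left arm, sparser than the right and close to the centre in density, had the wider and higher-scoring sites by these medians. Of the listed peaks, 36.9% (32.3% to 41.6%) of those in the right arm were in both replicates, 31.7% (27.2% to 36.6%) in the left arm and 29.4% (26.2% to 32.7%) in the centre. Shares of replicate 1 only were 25.5% in the left arm, 24.2% in the centre and 21.6% (17.9% to 25.9%) in the right arm, and those of replicate 2 only 7.05%, 6.22% and 7.37%. The excess of replicate 1 over replicate 2 was thus present in each of the 3 regions.

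Neighbouring sites on X were farther apart than on the autosomes, most of all at short range. From one reproducible X peak to the next, gaps had a median of 18040 bp and quartiles of 2918 and 48388 bp, against 5525 (III) to 12978 bp (V) on the autosomes. Gaps of at most 1000 bp made up 78 of 488 on X (16.0%), and 23.8% (II) to 29.6% (III) on the autosomes. At the long end X and V were close, with 90th percentiles of 96455 and 93068 bp. X therefore stood apart from V, the autosome of nearest density, at short and median gaps rather than at long ones. In the list of replicate 1 alone this was not so: there the median gap on X, 13140 bp, lay between that of II (11942 bp) and V (15216 bp), and 13.7% of gaps were at most 1000 bp, inside the autosomal range of 12.4% (V) to 16.2% (III). In the list of replicate 2 the median was 14780 bp on X and at most 8093 bp on the autosomes. With neighbours merged within 1000 bp, V had the longer median gap, 26955 bp against 25704 bp on X.

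**Figure D5:**
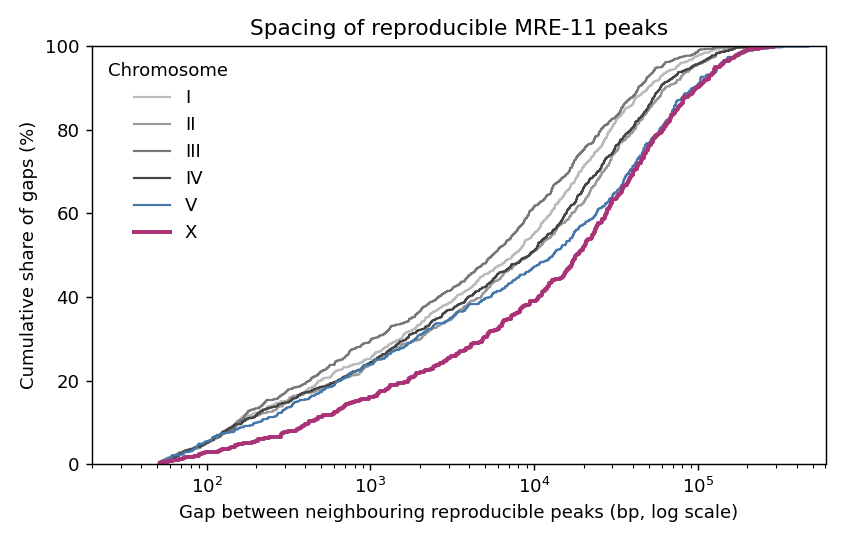
Cumulative share of gaps (%, y axis) by length of the gap between neighbouring reproducible peaks (bp, x axis, log scale), 1 line per chromosome. The X line is below all autosomes at short gaps, with 16.0% of gaps at 1000 bp or less, and at its median of 18040 bp. It comes close to that of V at long gaps.

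A larger part of the X sites stood alone. A run was taken as reproducible peaks with gaps of at most 5000 bp, and by that rule 254 of the 489 X peaks (51.9%, 47.5% to 56.3%) had no neighbour, against 29.0% (III) to 39.1% (V) on the autosomes. Runs of 3 or more peaks held 121 X peaks (24.7%), and 35.4% (II) to 46.3% (I) of the autosomal ones. In the list of replicate 1 the share of lone peaks was 47.4% on X and 49.9% on V, so X was the highest in replicate 2 (49.3% against at most 36.5%) and not in replicate 1.

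The runs with the most peaks lay mainly in the centre of X. The run with the most sites was X 11465053 to 11483238, with 8 reproducible peaks in 18186 bp, which covered 41.7% of it and had scores from 9.75 to 104.44. Next came X 6735269 to 6750632 and X 8014115 to 8029416, with 7 each, and X 14499762 to 14508984 and X 11785611 to 11793310, with 6 each. Of these 5 runs, 4 were in the centre and 1, X 14499762 to 14508984, in the right arm. The run with the fewest bases, X 11785611 to 11793310, was the most tightly packed of the 5, with 75.5% of its 7700 bp covered. Each of the 5 runs had fewer peaks in the list of replicate 1 than in that of replicate 2, from 7 against 8 in X 8014115 to 8029416 to 2 against 8 in X 6735269 to 6750632. These counts do not mean that sites were missing from replicate 1, because every reproducible peak is overlapped by both lists. A replicate 1 peak can span several sites, and one in X 6735269 to 6750632 was 10083 bp wide.

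Stretches without a reproducible site were not empty of weaker peaks. The longest were X 3246383 to 3536071 (289689 bp), X 10781056 to 11030946 (249891 bp), X 2432849 to 2667865 (235017 bp), X 6841490 to 7068345 (226856 bp) and X 11095769 to 11299458 (203690 bp). They held 10, 9, 15, 5 and 7 listed peaks in that order. The stretches at X 6841490 and X 11095769 held no peak of either replicate list, and the highest whole-series scores in them were 25.26 and 12.72. The stretch at X 2432849 had 3 peaks of replicate 1 and 0 of replicate 2. In all, 48 gaps of 100 kb or more made up 39.9% of X and held 345 listed peaks, and in 1 of the 48 there was none. They were spread as 12 in the left arm, 24 in the centre and 12 in the right arm, as the lengths of these regions would give. On the autosomes such gaps made up from 11.7% of the length (III) to 42.0% (V). X was thus close to V in long empty stretches. In fixed adjoining windows of about 200 kb, 0 of 89 on X were without a reproducible peak, as against 4 of 412 on the autosomes. A stretch that crosses a window boundary need not leave a window empty, and none of the longest stretches above did.

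X held a smaller share of the strongest whole-series peaks than of the nuclear length. It makes up 17.7% of the nuclear length and held 13.4% (12.7% to 14.0%) of all listed peaks. Of the 10% of peaks with the highest scores it held 122 of 1147 (10.6%, 8.98% to 12.6%). The share was 11.02% in the top 20% and 13.3% in the top 50%, sets that include the stronger peaks. It did not rise steadily towards weaker peaks. With the whole-series list in 5 equal score groups, X had 253 peaks in the highest, 350 in the middle and 274 in the lowest. By replicate, X held 13.5% (10.6% to 17.1%) of the top 10% of replicate 1 peaks and 9.31% (7.21% to 11.95%) of those of replicate 2. These intervals include the share of X in each whole list, 15.3% and 10.1%. The top 10% alone thus did not set X apart within a replicate list. Over all scores X ranked low in replicate 2, with a median percentile of 41.8 against 46.6 (V) to 54.2 (II) on the autosomes. In replicate 1 it was 46.2, inside the autosomal range of 45.0 (V) to 53.4 (IV). By 5 equal score groups, X peaks of the replicate 2 list fell from 147 in the lowest to 85 in the highest. Those of the replicate 1 list also differed, with 136 in the lowest and 113 in the highest. Of the X peaks, 16.5% fell in the highest of the 5 score groups, close to the 16.6% of the peaks of V.

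The sites of maximum score on X were isolated from each other and spread over the whole chromosome. The whole-series list had 172 nuclear peaks at its maximum score of 163.35 (1.50% of the nuclear peaks), and 17 of them were on X (1.11% of the X peaks, 0.694% to 1.77%). All 172 nuclear peaks at this score were reproducible, so that the 17 on X were too does not set X apart. The 17 lay as 4 in the left arm, 8 in the centre and 5 in the right arm. In the left arm they were X 47014 to 48480, X 161244 to 162095, X 516291 to 517498 and X 2996279 to 2997759. In the centre they were X 4711485 to 4712747, X 5227639 to 5228481, X 5952807 to 5953671, X 8035550 to 8037241, X 9007102 to 9009011, X 9464938 to 9466517, X 9605213 to 9608006 and X 12520931 to 12522252. In the right arm they were X 13794885 to 13797566, X 14361908 to 14363273, X 15481910 to 15484205, X 16055838 to 16057054 and X 17309778 to 17311828. Their widths ran from 843 to 2794 bp, with a median of 1467 bp, and no pair was closer than 112763 bp.

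Both replicates ranked these 17 sites high, which were picked by their whole-series score. How the 155 autosomal sites of maximum score ranked in the replicates was not counted. The replicate lists have a score of 3100 at 280 peaks of replicate 1 and 300 of replicate 2, of which 42 and 34 lie on X, and higher scores are rare. Of the 17 sites, 14 overlapped a peak of score 3100 in replicate 1 and 12 in replicate 2. The narrowest, X 5227639 to 5228481, had a score of 1893.03 in replicate 1 and 2318.31 in replicate 2. The widest, X 9605213 to 9608006, spanned 3708 bp in replicate 1 against 2951 bp in replicate 2. The site X 14361908 begins where a stretch of 191937 bp without a reproducible peak ends, so a site of maximum score bordered one of the longer empty stretches.

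The width of the X sites was close to that on the autosomes, with fewer very narrow ones. Reproducible X peaks had a median width of 576 bp (quartiles 408 and 962 bp), against 592.5 (III) to 647 bp (IV). Under 300 bp were 17 of 489 (3.48%, 2.18% to 5.50%), and 6.35% (II) to 9.30% (III) on the autosomes. Sites of 2400 bp or more made up 3.48% on X and 3.14% (III) to 4.38% (IV) on the autosomes. The share of broad sites on X thus lay inside the autosomal range.

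Among the 10 widest reproducible X sites, 5 lay in the left arm, 3 in the centre and 2 in the right arm. X 16929325 to 16940143 was by far the widest at 10819 bp, and measured 12582 bp in replicate 1 and 10748 bp in replicate 2. X 12662816 to 12668381 (5566 bp), X 289836 to 295290 (5455 bp), X 7951266 to 7956665 (5400 bp) and X 2057735 to 2062997 (5263 bp) followed. The others were X 109483 to 114280, X 4143912 to 4148127, X 6740815 to 6744802, X 3112462 to 3116163 and X 15807494 to 15811164, from 3671 to 4798 bp. Scores varied widely within this group. Whole-series scores ran from 29.29 to 144.01, and none reached the maximum. X 289836 to 295290 had a score of 3100 in replicate 1 and 311.96 in replicate 2, at percentiles of 96.1 and 59.3 of the lists. X 3112462 to 3116163 ranked the other way, with 1033.58 in replicate 1 and 2123.75 in replicate 2.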

How the data were processed

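MRE-11 ChIP-seq peak lists were analysed from 2 ChIP libraries, with 2 input libraries not used here. Per the submitters' processing notes, BWA and the ce10 genome were used for alignment. Peaks were called with MACS (replicate lists) or MACS v2 (whole-series list) in build WormBase WS220, per the file headers and source columns. Control, thresholds, pooling and versions: not given in the sources used here. The deposited score of each peak is the authors' own value on an unstated scale, and was used to rank peaks within a list. Read depth is unknown, so ChIP could not be set against input.

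An overlap of at least 1 bp counted as shared. Chromosome length was the highest end coordinate over the 3 lists. Position was the peak centre. Tied scores were ordered by width, then by start. Shares carry 95% Wilson intervals, and no p-values were computed. Named regions were the X sites of maximum score, the 10 widest, the 5 longest gaps, the 5 largest runs, the 3 densest and 3 sparsest bins and the 5 strongest of each other replicate class. X sites, regions and settings were chosen with earlier results of these data known. Interval functions were tested on simulated data. Python 3.11.15, numpy 2.4.6, pandas 2.3.3, scipy 1.17.1 and matplotlib 3.10.9 were used.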

Additional observations from a re-analysis of the deposited data

How the results depend on the processing

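Of 35 alternatives run over 7 X results, 17 stayed within the spread between replicates or the counting interval, 17 moved beyond it and 1 changed sign. The right arm exceeded the left by 7.45 per Mb, was below it with arms of 10% (-1.13 per Mb) and exceeded it by 3.61 per Mb with neighbours merged within 1000 bp. Arm share followed the size of the arms, 68.3% for 33% and 25.8% for 10%, which hold 66% and 20% of the length. Leaving out 1 replicate gave reproducible shares of 38.6% to 55.7%, densities of 33.4 to 48.2 per Mb, arm shares of 52.6% to 54.6% and median gaps of 6097 to 13793 bp, because a peak then needs 1 list and not both. It gave arm differences of 6.10 to 8.35 per Mb. Among the higher-scoring 50% of peaks the reproducible share was 60.97% and the median gap 20616 bp. Merging within 1000 bp gave a share of 35.2%, 23.2 peaks per Mb and a median gap of 25703.5 bp. The ratio of replicate 2 to replicate 1 on X was 0.554 for the 2000 highest-scoring peaks and 0.486 for covered bases. The causes of these last shifts were not tested. No paired analysis was possible because the samples with matching replicate numbers are inputs, for which no values were analysed here. Depth is unknown, so a peak missing from a list may lack signal or reads.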

Other observations

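The last listed peak of X, X 17718249 to 17718889, reaches the last base covered by any peak of that chromosome. It had a whole-series score of 84.63 and was in neither replicate list. Among all peaks in neither list, the highest score on an autosome was 33.88. The next X peaks of this class, X 14813342 to 14813602, X 1933548 to 1933837, X 6934446 to 6934704 and X 15689220 to 15689502, had scores from 24.39 to 26.51. At the other end, the first X peak spans bases 1 to 332 with a score of 14.94 and was reproducible.

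Replicate peaks on X were less often divided in the whole-series list. Of 644 replicate 1 peaks, 155 (24.1%) overlapped more than 1 whole-series peak, against 28.7% (V) to 34.2% (III) on the autosomes, and of 584 replicate 2 peaks 21 did (3.60%, against 8.79% to 11.9%). Up to 10 whole-series peaks lay in a single replicate 1 peak on X, and at most 8 in one on the autosomes.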
